A study of Homo sapiens with 2 samples.

Results

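The HOX genes lie in 4 clusters, HOXA, HOXB, HOXC and HOXD, on chromosomes 7, 17, 12 and 2. Their expression was described in 769-P, an established human line grown from a clear-cell carcinoma of the kidney. Members were the transcript clusters whose only annotated symbol is a HOX gene numbered 1 to 13 or a HOX antisense or noncoding gene. A transcript cluster is the array's unit for 1 gene or transcript locus. The rule found 39 genes, 25 coding and 14 noncoding, each with 1 transcript cluster, out of 22411 genes with a symbol of their own. The study put a lentiviral EGFP vector with a puromycin gene into 769-P cells. The control array held RNA of cells with the empty vector, and the other array RNA of cells in which the same vector carried the coding sequence of FOXK2, a forkhead transcription factor. Both populations thus carry EGFP, and the designed difference between them is the FOXK2 insert. Any other difference between the populations or the arrays cannot be told apart from it. With 1 array per group, no difference has a replicate check or a p-value, and the number of arrays limits the precision. Neither the time of harvest nor whether the cells were a clone or a pool is in the labels.

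HOX proteins bind DNA through a homeodomain and give cells of the embryo their position along the body axis. Within a cluster, genes with low numbers are switched on early and towards the head, and genes with high numbers later and towards the tail. Genes that share a number in different clusters are paralogs, and adult tissues and tumour lines often keep part of the pattern of the place they came from. The kidney arises from intermediate mesoderm of the trunk, and in mice the paralogs of group 11 are required for the ureteric bud to form.

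Values are log2 expression values as the authors deposited them. A gene was called above the level limit where its mean over both arrays was at least 5.24, the median of all transcript clusters with 1 symbol. Because each transcript cluster has its own probes, levels were read against this limit and not ranked between genes. Whether a value lies above background is not known from the deposited table. As a second limit, 4.74 was used, the 95th percentile of 366 olfactory receptor genes, most of which are silent outside the nose. 11 of these 366 lay above the level limit themselves, with a mean of up to 10.18, so the family is not silent throughout. FOXK2 itself stood at 9.36 with empty vector and 13.82 with the insert, in the direction of the labels. Renal markers fixed for the check were present: PAX8, a transcription factor of kidney epithelium, stood at 10.96 and 10.80, and all 8 measured of the 10 listed lay above the limit. Of these, the endocytic receptors LRP2 (13.15 and 16.20) and CUBN (9.41 and 12.84) were more than 2-fold higher with FOXK2. None of the 11 measured markers of leukocytes, endothelium, fibroblasts, neural crest and neurons lay above the level limit.

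Most HOX genes lay below the level limit in both arrays. 6 of the 39 (15.4%) lay above the level limit, against 50.3% of all genes. Among the coding members the count was 4 of 25, or 16.0%, beside 56% of all protein-coding genes. For the noncoding members it was 2 of 14, or 14.3%, beside 17.9% of all long noncoding RNA genes. The 6 came from all 4 clusters and included paralog groups 2, 7, 8 and 13. HOXC13, the only one from HOXC and from group 13, passed through the FOXK2 array alone. The 5 above the limit in both arrays came from HOXA, HOXB and HOXD. Their coding genes were of groups 2, 7 and 8, no unbroken stretch of the numbering. HOXA2 is the only coding member from HOXA. The other 33 members had means between 3.14 and 5.01. Only HOXC6 and HOXC9 of these 33 lay above the limit from olfactory receptors.

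HOXD8, a central gene of its cluster, had a log2 value of 6.05 with empty vector and 5.97 with FOXK2. It was the only coding or noncoding member of the HOXD cluster above the level limit. HOXB7, which in the mouse marks the ureteric bud and its collecting duct descendants, stood at 5.55 and 5.58. HOXA2, a gene of the hindbrain and the second branchial arch, stood at 5.51 and 5.48. These 3 coding genes lay above the limit in both arrays, and their arrays differed by less than 0.1. HOXC13, needed for hair and nails, stood at 5.10 with empty vector, below the limit, and at 5.74 with FOXK2, above it. The noncoding HOXA-AS2, which lies beside HOXA3 and HOXA4, stood at 5.41 and 5.64, and HOXB-AS4, between HOXB9 and HOXB13, at 5.27 and 5.40.

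For the HOXA cluster, HOXA2 was the only coding member, so its coding genes were described mainly through transcript clusters that carry several symbols and fall outside the rule. The one annotated to HOXA3 and HOXA6 stood at 5.88 with empty vector and 6.09 with FOXK2. The one annotated to HOXA9, MIR196B and the HOXA10-HOXA9 read-through stood at 6.45 and 6.41. The one annotated to HOXA10-AS and MIR196B stood at 6.26 and 6.38. All 3 lay above the level limit in both arrays, as did HOXA2 and HOXA-AS2. Further along the cluster, HOXA11-AS stood at 4.11 and 4.03 and HOTTIP, a noncoding RNA at the HOXA13 end, at 3.80 and 3.83, both below it. HOXA-AS3, which overlaps HOXA6, was an exception on the near side, at 3.57 and 3.71. In the HOXA locus, the measured values from HOXA2 to HOXA10-AS therefore lay above the limit, with that exception. Values of the 3 transcript clusters with several symbols cannot be assigned to single genes. Those of HOXA9 and of HOXA10-AS both name MIR196B. An unbroken run of HOXA genes is therefore not shown. Other genes of the cluster were not analysed here.

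In the HOXB cluster, 12 members were measured, and HOXB7 and HOXB-AS4 were the 2 above the limit. HOXB1 stood at 3.06 and 3.22 and HOXB2 at 3.92 and 3.95; both act in the hindbrain. The transcript cluster shared by MIR10A, HOXB3 and HOXB4 stood at 4.02 and 4.05. On either side of HOXB7, HOXB6 stood at 3.79 and 3.93 and HOXB8 at 4.40 and 4.49, so the gene's neighbours of the same cluster were both below the limit. HOXB9 had the same value, 4.66, in both arrays. HOXB13, known from the prostate and the tail end of the body, stood at 3.97 and 3.83.

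HOXC was measured most fully, with all 9 of its coding genes. HOXC4, HOXC5 and HOXC6 overlap in their transcripts. Their own transcript clusters stood between 3.74 and 5.06 over both arrays, and the one that names all 3 at 4.25 and 4.31, so values of single genes are uncertain. HOXC8 stood at 3.66 and 3.57, HOXC9 at 4.87 and 5.03 and HOXC10 at 4.60 and 4.86. HOXC11 stood at 3.50 and 3.61 and HOXC12 at 4.51 and 4.79. None of these reached the level limit in either array. HOTAIR, the noncoding RNA of this cluster that has been studied as a partner of Polycomb proteins, stood at 4.26 and 4.43. HOXC-AS3 at 4.70 and 4.65 and HOXC13-AS at 4.08 and 4.11 were likewise below it.

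In the HOXD cluster, the genes on both sides of HOXD8 were below the limit. HOXD9 stood at 3.76 and 3.81, and the transcript cluster of MIR10B, HOXD3 and HOXD4 at 3.86 and 4.06. HOXD1 stood at 3.87 and 3.94, HOXD10 at 4.58 and 4.75 and HOXD12 at 3.70 and 3.76. HOXD13, the digit gene at the end of the cluster, stood at 4.27 and 4.34. HOXD-AS2 stood at 4.15 and 4.26, and HAGLR, an antisense gene of the same locus once named HOXD-AS1 and no member by the rule, at 4.17 and 4.22. For paralog group 11, whose mouse genes induce the kidney, HOXC11 and HOXD11 were measured. HOXD11 stood at 4.49 and 4.56, so neither lay above the level limit or the olfactory receptor limit. HOXA11, of the same group, was not analysed here, so these values do not cover the whole group.

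Read by position, 1 of 5 coding members of groups 1 to 4 lay above the level limit (HOXA2), 2 of 8 of groups 5 to 8 (HOXB7 and HOXD8), and 1 of 12 of groups 9 to 13 (HOXC13, in the mean of both arrays). The HOXA cluster enters these counts through HOXA2 alone. Left out are its transcript clusters with several symbols above the level limit, that of HOXA3 and HOXA6 (5.88 and 6.09) and that of HOXA9 and MIR196B (6.45 and 6.41). With so few genes per class these counts set no boundary along the axis. Under the lower limit from olfactory receptors they were 1 of 5, 3 of 8 and 2 of 12.

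**Figure D1:**
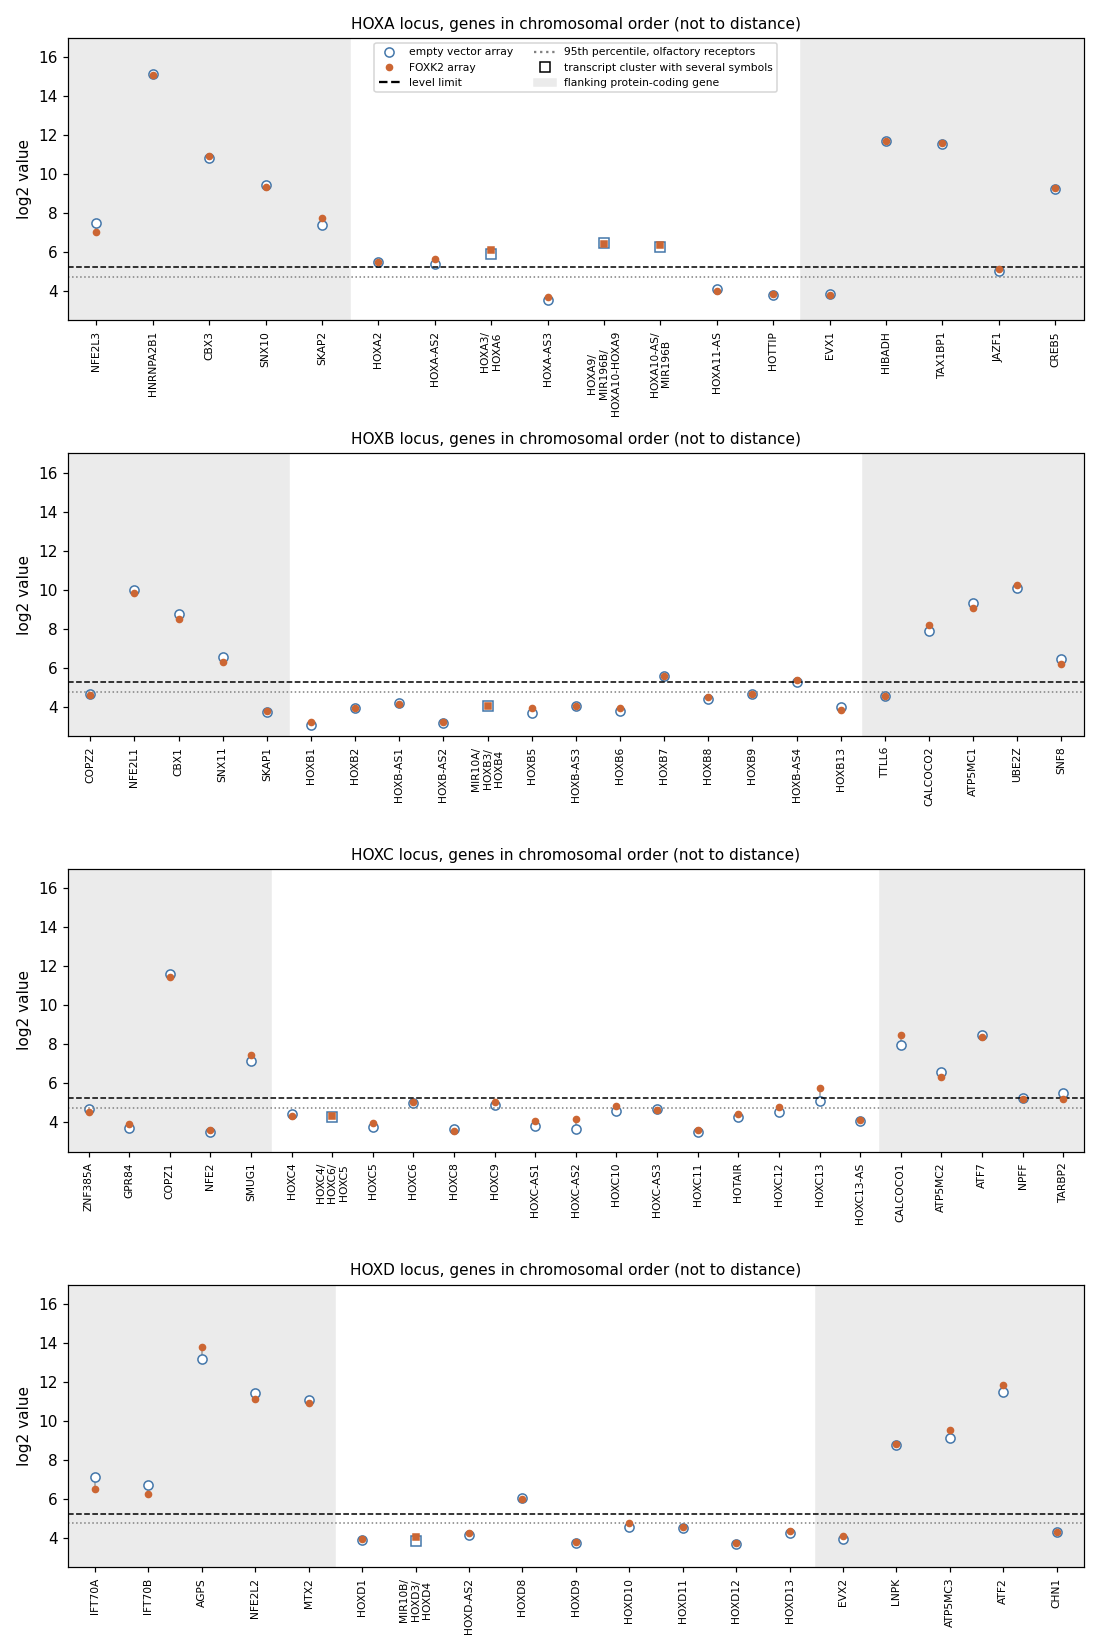
Log2 value of each gene at the 4 HOX loci, in chromosomal order from the low-number to the high-number side with no scale of distance, in the empty vector array (open) and the FOXK2 array (filled). Squares are transcript clusters with several symbols, and grey bands are flanking protein-coding genes. The lines are the level limit of 5.24 and the olfactory receptor limit of 4.74. Above the level limit lie 29 of 40 flanking genes, beside 56% of all protein-coding genes. Below it lie 33 of the 39 HOX genes.

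The genes around the clusters are shown in the plot of values along the loci. Of the 5 nearest protein-coding genes measured on each side of each cluster, 29 of 40 lay above the level limit. Of all protein-coding genes, 56% did. By cluster the flanking count was 8 of 10 at HOXA, 7 of 10 at HOXB, 6 of 10 at HOXC and 8 of 10 at HOXD. SKAP2, an adaptor protein on the low-number side of HOXA, stood at 7.37 and 7.77, and MTX2, a mitochondrial import protein beyond HOXD1, at 11.09 and 10.90. LNPK, which shapes the endoplasmic reticulum and lies beyond HOXD13, stood at 8.78 and 8.81. The homeobox genes EVX1 and EVX2, which adjoin HOXA13 and HOXD13, were below the limit, at 3.87 and 3.82 and at 3.94 and 4.11. None of the 40 flanking genes differed 2-fold between the arrays.

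No HOX gene differed 2-fold between the arrays. Among the 6 above the level limit, 0 passed 2-fold upwards with FOXK2 and 0 downwards, where 2.13% and 3.05% of all genes above the limit were. At any level it was also 0 of 39 in both directions, beside 1.11% higher and 1.58% lower of all genes. Of the 39, 33 lay below the limit, where only 9 of all 11148 genes were 2-fold higher and 10 lower. A count of 0 below the limit is therefore near the share of all genes there. Single arrays cannot show whether smaller differences exceed the array error. Between transcript clusters of the same gene, differences disagreed by a median of 0.11 in the 185 genes with several above the limit. That disagreement comes from the same 2 arrays and from genes above the limit, so it holds no error between arrays.

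HOXC13 had the largest difference, 0.63, which is 1.55-fold higher with FOXK2, from 5.10 to 5.74. Its mean passed the level limit through the FOXK2 array alone, so the share of genes above the limit is no measure for it. Of 1343 genes within 0.25 of its mean level, 42 (3.13%) had a difference at least as high and 7.52% one at least as large in size. HOXC-AS2, an antisense RNA between HOXC9 and HOXC10, came next at 0.48, from 3.67 to 4.15, both values below both limits. Among genes of its level, 1.23% had a difference at least as high and 2.19% one at least as large in size. HOXC12, beside HOXC13, differed by 0.28, and 14.2% of genes of like level had a difference at least as high, or 20.5% one at least as large in size. HOXC13, HOXC-AS2 and HOXC12 were picked for the largest differences of the 39 members, so these shares are no test of them. HOXC10 and HOXB5 differed by 0.26 each, and HOXC-AS1 by 0.24. The lowest differences were those of HOXB13 at -0.14 and HOXC4 at -0.14, and HOXA-AS2 had 0.23, HOXB-AS4 0.13, HOXB7 0.03, HOXA2 -0.04 and HOXD8 -0.07.

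**Figure D2:**
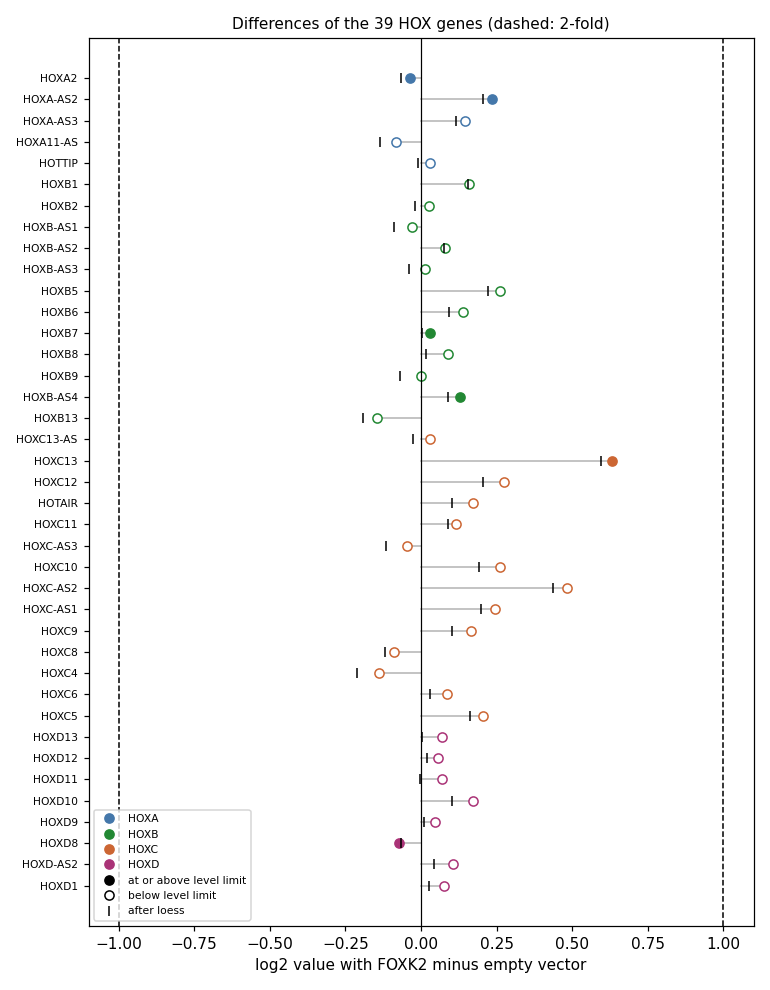
Difference of each HOX gene, FOXK2 minus empty vector on the log2 scale, coloured by cluster, filled where the gene lies above the level limit, with a tick for the value after removal of a loess trend on level. All 39 points lie between -0.14 and 0.63, inside the dashed lines at 2-fold, and HOXC13 lies furthest out.

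30 of the 39 differences were positive, 8 negative and 1 was 0, with a median of 0.080. All genes below the level limit leaned the same way, with 62.1% positive and a median of 0.055, whereas genes above it had a median of -0.050. After removal of the trend on level, 25 HOX differences were positive and 14 negative, with a median of 0.028, beside 50.8% positive among all genes below the limit. Quantile normalization gave the same split, and centring of the arrays on their medians gave 23 and 16. By cluster the medians were 0.03 for HOXA, 0.05 for HOXB, 0.17 for HOXC and 0.07 for HOXD. With the trend removed they were -0.01, 0.01, 0.10 and 0.01, so that of HOXA changed sign. For HOXC, 11 of 14 were positive as deposited. Among genes above the level limit, the 51 nearest to that cluster on chromosome 12 had a median of -0.03. They are no comparison of like level, since 13 of the 14 HOXC members lay below the limit.

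**Figure D3:**
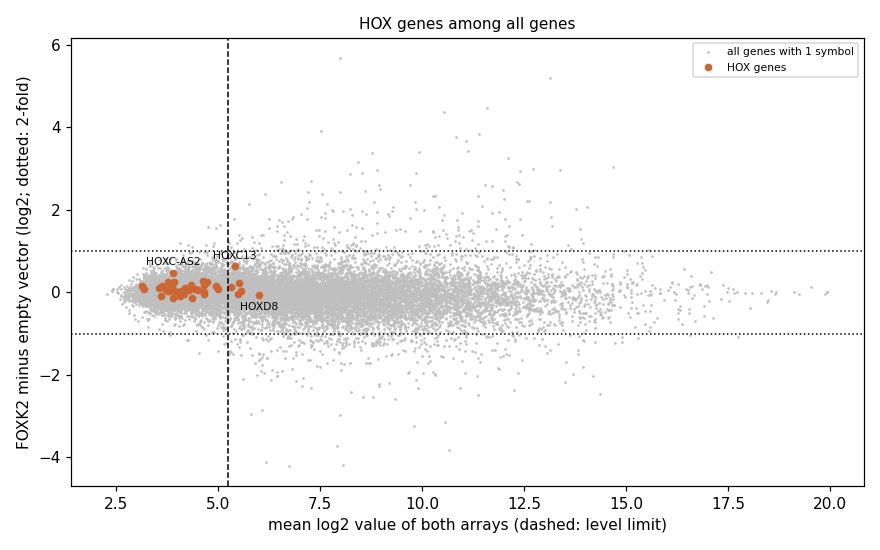
Difference (FOXK2 minus empty vector, log2) against the mean log2 value of both arrays for all 22411 genes (grey) and the 39 HOX genes (orange). The dashed line is the level limit of 5.24 and the dotted lines mark 2-fold; 33 of the 39 HOX genes lie left of the limit and all lie between the dotted lines.

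A microRNA gene inside the HOXB cluster also lay above the level limit in both arrays. MIR196A1, between HOXB9 and HOXB13 like HOXB-AS4, stood at 6.01 with empty vector and 6.32 with FOXK2, a difference of 0.31. The value measures labelled RNA of the locus and not the mature microRNA. Its copy MIR196A2, in the HOXC cluster, stood at 3.54 in both arrays, and MIR615, also in HOXC, at 4.05 and 3.97. The mature sequences from RefSeq (GRCh38.p14) are shown to make clear that loci of 3 HOX clusters give the same seed, bases 2 to 8 in capitals, while miR-10a of the HOXB cluster has another.
miR-196a-5p (MIR196A1, chr17:48632532-48632553, minus strand; the same sequence from MIR196A2, chr12:53991762-53991783, plus strand): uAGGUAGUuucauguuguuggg
miR-196b-5p (MIR196B, chr7:27169528-27169549, minus strand): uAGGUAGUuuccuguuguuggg
miR-10a-5p (MIR10A, chr17:48579904-48579926, minus strand): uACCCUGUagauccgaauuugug
The miR-196 forms share 21 of 22 bases and differ by A12C, counted from the 5′ end with the base of miR-196a first.

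Promoter windows of 300 bases, from 250 before the start to 50 after it, were in the RefSeq table for 19 of the 39 genes, as 19 distinct windows, since HOXC4 and HOXC5 share one and HOXB-AS4 has several. The 9 windows of coding members had a median of 23 CpG dinucleotides and those of the noncoding members one of 5, beside 14 over all 34943 windows. A ratio of observed to expected CpG of at least 0.6 was found in 8 of the 9 coding windows and 1 of the 10 noncoding ones, against 48.7% of all windows. Of the coding genes above the level limit, HOXD8 and HOXA2 had a window. Their 250 bases before the start (GRCh38.p14) are shown since they differ widely in CpG content, 28 and 8 dinucleotides, which are in capitals.
HOXD8, chr2:176129455-176129704, plus strand: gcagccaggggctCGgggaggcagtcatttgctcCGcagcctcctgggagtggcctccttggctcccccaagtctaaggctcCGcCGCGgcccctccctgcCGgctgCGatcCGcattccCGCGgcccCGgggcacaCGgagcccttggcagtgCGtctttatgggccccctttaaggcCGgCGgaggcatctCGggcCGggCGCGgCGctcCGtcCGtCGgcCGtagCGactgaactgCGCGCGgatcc
HOXA2, chr7:27102684-27102933, minus strand: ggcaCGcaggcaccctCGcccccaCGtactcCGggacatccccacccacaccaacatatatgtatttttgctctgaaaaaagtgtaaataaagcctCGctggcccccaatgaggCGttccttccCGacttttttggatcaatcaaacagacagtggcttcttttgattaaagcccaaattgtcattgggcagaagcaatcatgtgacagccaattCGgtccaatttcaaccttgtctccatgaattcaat

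The forkhead core motif GTAAACA, searched on both strands (as TGTTTAC on the other), was found in 2 of the 19 HOX windows, against 3.42% of all windows. One was that of HOXB-AS4, 79 bases before the start, and the other the window shared by HOXC4 and HOXC5, 195 bases before it. These stretches are shown with the match in capitals, and a match is a run of letters and not a measured site.
HOXB-AS4, chr17:48628589-48628655, plus strand: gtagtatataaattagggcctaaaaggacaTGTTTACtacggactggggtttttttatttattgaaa
HOXC4 and HOXC5, chr12:54016663-54016729, plus strand: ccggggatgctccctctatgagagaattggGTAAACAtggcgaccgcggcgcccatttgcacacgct
HOXB-AS4 differed by 0.13, HOXC4 by -0.14 and HOXC5 by 0.20. With 1 array per group, no direction was read from these sizes.

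HOX proteins bind DNA together with TALE homeodomain partners, such as the PBX and MEIS proteins. 7 of 10 measured TALE genes lay above the level limit, beside 56% of all protein-coding genes, and no TALE gene differed 2-fold. PBX3, a direct partner of HOX proteins, stood at 7.16 and 7.36, PBX2 at 6.85 and 6.65, and MEIS2, which forms a complex with both, at 6.95 and 6.59. TGIF1, a TALE repressor, had the largest difference, -0.59. Polycomb proteins hold HOX genes silent outside their domain, and that list also holds the opposing demethylases. Its count above the limit was 18 of 19 measured genes, beside the same 56%, with none 2-fold apart. SUZ12, a core subunit of the H3K27 methyltransferase, stood at 10.88 and 11.31, and KDM6A, a demethylase of that mark, at 9.96 and 10.23. CBX6, a chromodomain reader, differed by -0.27 and PHF19, an accessory factor, by -0.29.

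Trithorax and MLL proteins keep HOX genes active. All 20 measured lay above the limit, beside 56% of all protein-coding genes, with none 2-fold apart. Negative differences were found in 15 of 20 (13 after loess or quantile normalization, 17 after median centring), and the median was -0.19. Of all genes above the limit, 55.6% were negative as deposited, 50.02% after loess, 53.8% after quantile normalization and 64.0% after median centring. AFF1, an elongation factor fused to MLL in leukaemia, had -0.84, WDR5, a subunit of the MLL complex that binds HOTTIP, -0.63, NSD1 -0.58 and HCFC1 -0.35. Of the genes that induce HOX expression or belong to the related ParaHox group, 7 of 16 (43.8%) lay above the limit, beside the 56%. RARA, a retinoic acid receptor, differed by 0.52, CTCF, which insulates domains of the clusters, by -0.34, GDF11, a ligand of axial patterning, by 0.31 and RXRA, the partner of RARA, by -0.18. The caudal genes CDX1, CDX2 and CDX4 stood between 3.09 and 4.17, below the limit. Among the other ParaHox genes, GSX1 stood at 6.05 and 6.11, above the limit, whereas GSX2 and PDX1 lay below it.

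Of the kidney development genes, some of which act beside HOX11 in the embryo, 8 of 17 measured (47.1%) lay above the limit. Of all protein-coding genes, 56% did. PAX2, a partner of HOX11 proteins in mice, stood at 8.13 and 8.05, whereas EYA1, a cofactor of the same complex, stood at 4.19 and 4.43 and SIX2, its target in nephron progenitors, at 4.64 and 4.77. SALL1 had the largest difference above the limit, 0.69, from 6.72 to 7.41. WT1 and LHX1, both needed for nephron formation, differed by 0.34 and -0.34, and PAX8 by -0.16. The direction of the PAX2 difference of -0.08 was not kept once the trend on level was removed.

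**Figure D4:**
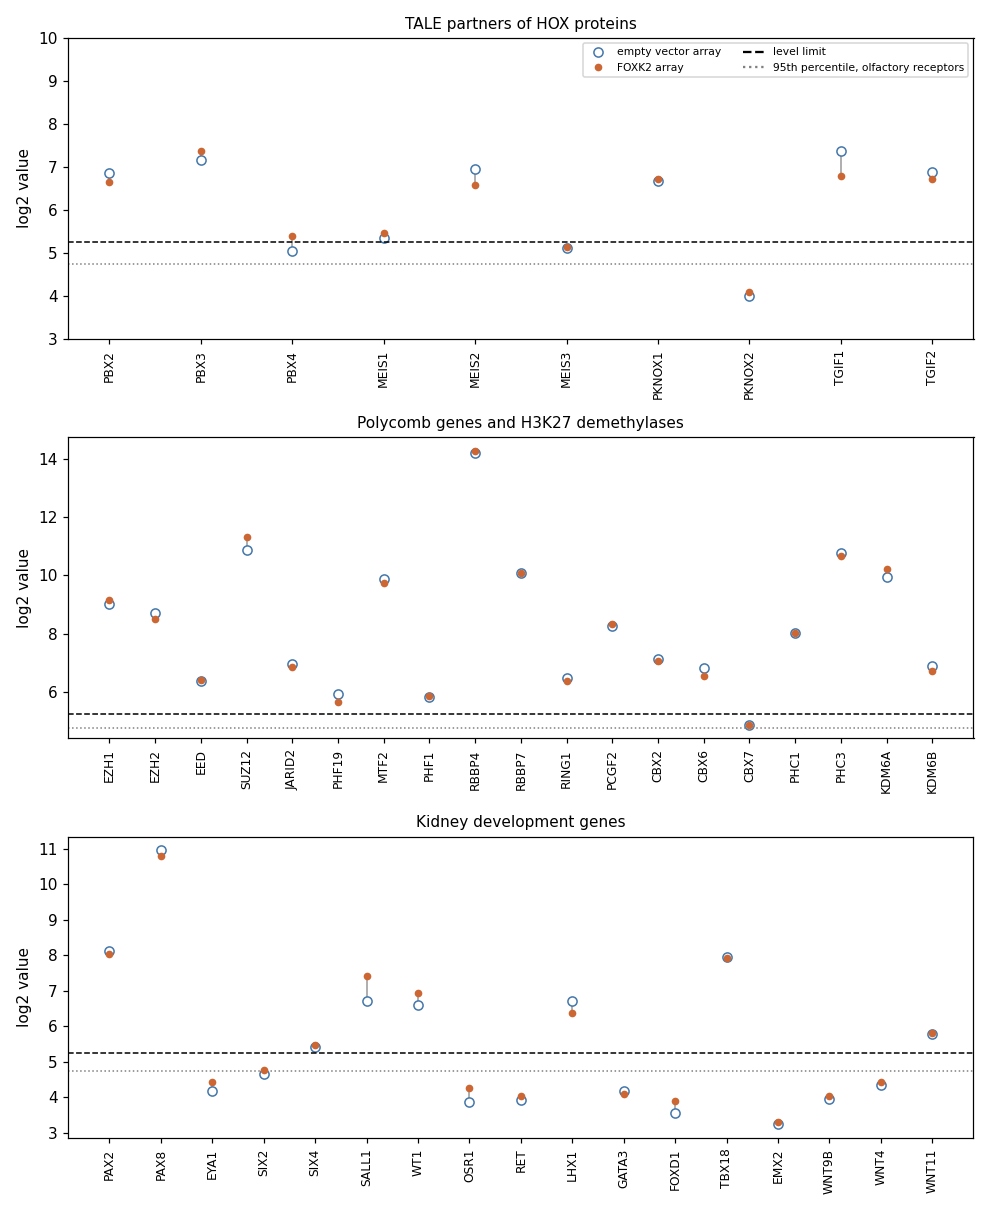
Log2 values in the empty vector array (open) and the FOXK2 array (filled) for TALE partners of HOX proteins, for Polycomb genes with the H3K27 demethylases, and for kidney development genes. The dashed line is the level limit of 5.24 and the dotted line the olfactory receptor limit of 4.74. Above the level limit lie 7 of 10, 18 of 19 and 8 of 17 genes, beside 56% of all protein-coding genes.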

How the data were processed

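The table the authors deposited holds log2 expression values of 67528 transcript clusters on each array. Per the submitters' processing notes they used Affymetrix Expression Console; no source used here names its version or algorithm, or the build. That the values are log2 was read from their range, 2.13 to 19.93. Transcript clusters were named from the platform annotation (23781 with 1 symbol, 1543 with several, 42204 with none), and symbols were updated with RefSeq (GRCh38.p14), which also gave the order of genes, gene types and sequences. Transcript clusters of a gene were averaged, and no normalization was added. Differences are FOXK2 minus empty vector. Named were all HOX genes above the level limit in 1 array, every HOX gene with a 2-fold difference, and up to 4 genes per further list; further names were picked with their values known. The members and lists were chosen with earlier results of these data known. The alternatives were median centring, loess (span 0.3), quantile normalization, the brightest transcript cluster and other limits. Another subtracted the median of the 51 nearest genes above the level limit. The software was Python 3.11.15 with statsmodels 0.14.6, pandas 2.3.3 and numpy 2.4.6, and the calls were tested on simulated data. The simulated shifts were larger than the 2-fold limit and were placed in genes at or above the median level. They say nothing about smaller differences or about the HOX genes of lower level.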

Additional observations from a re-analysis of the deposited data

How the results depend on the processing

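No paired analysis was possible because each group has 1 array. Of 24 alternative counts, 22 stayed within 1.5 times the reported one. Most of the 24 concern the 2-fold counts, which were 0. No member differed 2-fold at any level, so another level limit could not alter these counts and is no check of them. Each HOX gene has 1 transcript cluster, so the brightest transcript cluster returned the reported HOX counts and differences by construction and is no check. The 22 include these outcomes that were fixed in advance. With the median of all transcript clusters, named or not, as the limit (4.52), 14 HOX genes lay above it in place of 6, since that limit is lower; the other limits gave 5 to 8. At 1.5-fold in place of 2-fold, 1 HOX gene was higher with FOXK2, HOXC13 at 0.63 against a limit of 0.585; it was short of it after median centring (0.562) and quantile normalization (0.580), and it lies below the level limit in the empty vector array. The median difference of the HOX genes lay between 0.010 (arrays centred on their medians) and 0.13 (neighbouring genes subtracted). Those neighbours all lay above the level limit, unlike 33 of the 39 HOX genes, so the 0.13 compares unlike levels. HOXC13 kept its direction under all 5 alternatives (0.56 to 0.66), including the brightest transcript cluster, which could not change it. HOXB7 changed sign under 2 of 5 (down to -0.040) and HOXD8 under 1 of 5 (0.044 with neighbours subtracted); HOXA2, HOXA-AS2 and HOXB-AS4 did not. Without probe intensities, the lowest values cannot be told from background.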
